A study of Mus musculus with 59 samples.

Results

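The acetylcholine receptor genes described here are 4 nicotinic subunits (Chrna7, Chrna4, Chrna5 and Chrnb2) and 4 muscarinic receptors (Chrm1, Chrm2, Chrm3 and Chrm4), together with 2 genes of the Ly6 family that modulate nicotinic receptors (Lypd1 and Lynx1). They were taken by symbol from a table of raw counts, in which each has 1 row, so 10 of 57180 gene rows are described. All 10 passed the filter on low counts in both tissues. The list was drawn up with earlier results of these data known, so the members count as chosen by measured values of this study. Of those values only 1 set is known, the cortical Chrna7 level in Slc25a1 heterozygotes, so Chrna7 values there are given as a description with no test. Whether tissue differences or other genotype values also entered the choice is not known. If they did, the p-values given below for the members would be affected. The wild-type tissue test of Chrna7 also shares cortex libraries with the comparison that chose it.

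Poly(A) RNA was sequenced from the cortex and the hippocampus of 30 males of 4 genotypes, which combine wild-type and heterozygous alleles of 2 mitochondrial genes. The product of Slc25a1 carries citrate across the inner mitochondrial membrane, and that of Mrpl40 is a protein of the mitochondrial ribosome; both lie in the mouse region that matches the human 22q11.2 microdeletion. The groups were wild type (Mrpl40 +/+, Slc25a1 +/+; 9 cortex and 8 hippocampus libraries), Slc25a1 heterozygous (Mrpl40 +/+, Slc25a1 -/+), Mrpl40 heterozygous (Mrpl40 -/+, Slc25a1 +/+) and double heterozygous (Mrpl40 -/+, Slc25a1 -/+), the last 3 with 7 libraries in each tissue. Both tissues were available from 29 animals. The labels give neither age, nor strain, nor how the alleles were made. Levels are CPM, counts relative to the library total, scaled for library composition by the trimmed mean of M values.

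Total counts ran from 21443017 to 32120906 per library. Slc25a1 itself fell into separate ranges in cortex, with 12 libraries at 10.8 to 13.1 CPM and 18 at 21.0 to 26.3 CPM, and likewise in hippocampus. For 6 animals this level went against the label in both tissues: 2 labelled wild type were low, and 2 labelled Slc25a1 heterozygous and 2 labelled double heterozygous were high. Mrpl40 ran from 14.3 to 20.7 CPM in cortex and from 13.4 to 17.2 CPM in hippocampus with overlapping genotypes. Unlike that of Slc25a1, its level thus gave no check of the labels, which do not say which part of the gene the allele removes. All genotype groups below are therefore the libraries so labelled, and results that rest on the 6 animals are given with and without them. Summed over 9 markers of neocortical neurons, cortex libraries held 1625 to 2138 CPM and hippocampus libraries 473 to 618 CPM. Over 11 hippocampal markers the sums were 468 to 554 CPM in cortex and 1189 to 2108 CPM in hippocampus, so the tissue labels and their markers match.

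Acetylcholine acts on these tissues through both receptor families. Nicotinic receptors are pentameric cation channels: the alpha7 subunit encoded by Chrna7 can form channels by itself, while alpha4 (Chrna4) and beta2 (Chrnb2) form the main high-affinity nicotine receptor of the brain, which alpha5 (Chrna5) can join as an accessory subunit. Muscarinic receptors couple to G proteins: M1 and M3 (Chrm1 and Chrm3) act through Gq and phospholipase C, and M2 and M4 (Chrm2 and Chrm4) through Gi. Lynx1 and Lypd1, also called Lynx2, are membrane-anchored proteins that bind nicotinic receptors and dampen their responses.

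For the members with the largest tissue differences, the 250 bases before the annotated start are shown, because these genes moved in opposite directions: Chrna7 was higher in hippocampus, and Chrm2 and Chrm4 were lower. RefSeq (GRCm38.p6) gave such windows for 8 of the 10 members; Chrm1 and Lynx1 were not matched. Capitals mark the GC box, searched as GGGCGG on either strand (CCGCCC in reverse), and each sequence runs 5' to 3' on the gene's strand.
Chrna7 (chr7:63212527-63212776, - strand): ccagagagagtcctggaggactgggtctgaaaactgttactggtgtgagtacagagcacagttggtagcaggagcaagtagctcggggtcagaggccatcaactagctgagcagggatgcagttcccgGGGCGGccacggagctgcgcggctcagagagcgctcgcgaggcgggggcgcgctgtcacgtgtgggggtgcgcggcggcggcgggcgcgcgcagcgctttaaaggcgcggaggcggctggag
Chrm2 (chr6:36387834-36388083, + strand): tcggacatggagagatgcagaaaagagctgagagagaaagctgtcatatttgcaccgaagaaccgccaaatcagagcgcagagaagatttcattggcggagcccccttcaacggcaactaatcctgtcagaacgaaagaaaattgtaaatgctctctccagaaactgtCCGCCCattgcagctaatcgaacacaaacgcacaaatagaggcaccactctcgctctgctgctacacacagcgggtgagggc
Chrm4 (chr2:91921939-91922188, + strand): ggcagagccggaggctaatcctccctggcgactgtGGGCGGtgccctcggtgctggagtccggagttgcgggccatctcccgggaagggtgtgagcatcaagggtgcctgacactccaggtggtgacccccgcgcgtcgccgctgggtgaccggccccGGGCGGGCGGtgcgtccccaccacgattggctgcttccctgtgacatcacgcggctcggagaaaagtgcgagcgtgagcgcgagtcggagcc
Chrna7 and Chrm2 each held 1 GC box, and Chrm4 held 3, of which the last 2 overlap; 32.7% of 32851 RefSeq windows of this length held at least 1. The E-box CACGTG was found once in Chrna7 and not in Chrm2 or Chrm4, against 6.02% of all windows. Neither the CRE core TGACGT nor the TATA motif TATAAA, searched on both strands, was found in these 3 windows; 6.47% and 12.4% of all windows held them. G and C made up 67.2% of the Chrna7 window, 50.0% of Chrm2 and 70.0% of Chrm4, beside a median of 52.4% over all windows. A match describes the letters only.

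On GRCm38 the nicotinic subunit genes lie at chr7:63098692-63212569, - strand (Chrna7), chr2:181018380-181043546, - strand (Chrna4), chr9:54980880-55007779, + strand (Chrna5) and chr3:89746195-89764632, - strand (Chrnb2). The muscarinic receptor genes lie at chr19:8663789-8683587, + strand (Chrm1), chr6:36388084-36528414, + strand (Chrm2), chr13:9875486-10360847, - strand (Chrm3) and chr2:91927249-91928688, + strand (Chrm4). Lypd1 lies at chr1:125867622-125913101, - strand, and Lynx1 at chr15:74747852-74753046, - strand. The table has 1 value per gene and none per isoform.

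Among the members, Lynx1 and Chrm1 had the highest levels per length in both wild-type tissues and Chrna5 the lowest. Levels between genes were compared as CPM per kb of exon, with exon lengths from GENCODE vM21. In wild-type cortex Lynx1 stood at 90.4 ± 9.32 CPM per kb (SD, n = 9), Chrm1 at 31.4 ± 1.59, Chrm4 at 22.2 ± 3.22 and Chrm3 at 13.7 ± 1.33 CPM per kb. Below them came Chrnb2 (7.37 ± 0.512 CPM per kb), Chrna4 (7.07), Lypd1 (3.60), Chrm2 (2.89), Chrna7 (1.05) and Chrna5 (0.293 CPM per kb). Neighbours whose ranges overlapped in cortex were Chrm4 and Chrm3, Chrnb2 and Chrna4, Chrna4 and Lypd1, and Lypd1 and Chrm2. In wild-type hippocampus Lynx1 (70.6 ± 6.05 CPM per kb; SD, n = 8) and Chrm1 (38.7 ± 5.28) again led without overlap. The middle of that order was closely spaced: Chrnb2 at 7.80, Chrm3 at 6.67, Lypd1 at 6.66 and Chrm4 at 5.87 CPM per kb had overlapping ranges, as did Chrm4 with Chrna4 (3.51) and Chrna4 with Chrna7 (2.50). Chrm2 (0.714) and Chrna5 (0.670 CPM per kb) closed it and overlapped. The Chrm4 model in this annotation spans 1440 bases, nearly all of it the coding length of 1437, so it holds no UTR. RefSeq starts the gene farther upstream: its window shown above ends at chr2:91922188, and this model begins at chr2:91927249. If the counted exons were longer, the Chrm4 level per kb would be lower. The place of Chrm4 in both orders rests on this short length.

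**Figure D1:**
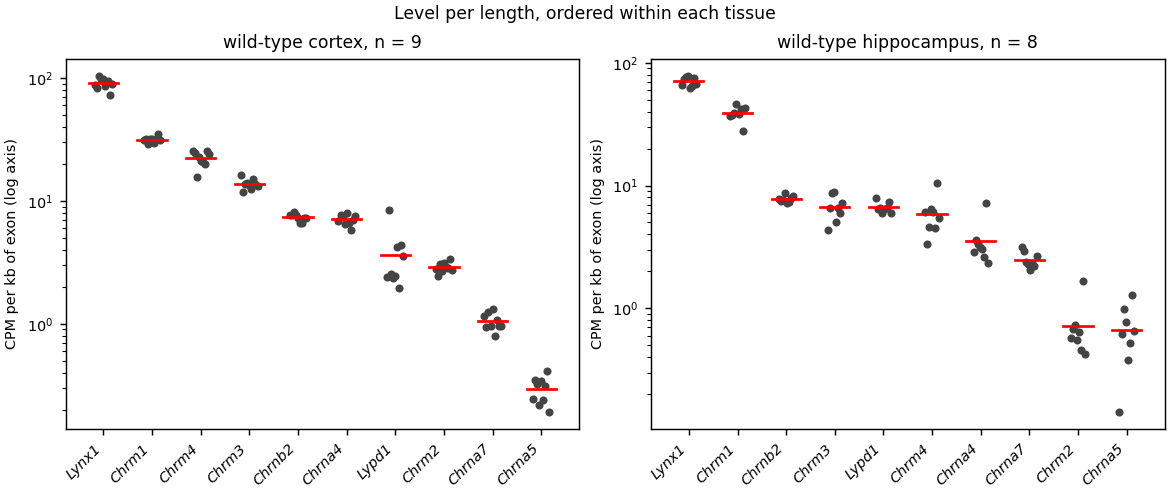
CPM per kb of exon (log axis) of the 10 members in wild-type cortex (9 libraries) and hippocampus (8 libraries), ordered by the mean (red bar); points are libraries. Lynx1 and Chrm1 lead in both tissues, while Chrm4 and Chrm2 stand lower in the hippocampal order than in the cortical one.

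Between the tissues the members split in opposite directions. In wild-type animals Chrna7, Chrna5, Lypd1 and, by a smaller step, Chrm1 were higher in hippocampus; Chrm2, Chrm4, Chrna4, Chrm3 and, by a smaller step, Lynx1 were lower; Chrnb2 was not called. Each tissue difference was tested with animal as a block in edgeR's quasi-likelihood test, with Benjamini-Hochberg adjustment over all 21354 genes tested and a threshold of 0.05. Only animals with both tissues entered, 8 of them in wild type, so leaving out a library also left out its partner from the other tissue. By that test 9 of 10 members were called in wild type, where 60.6% of all genes were called, so a high count of calls is common to genes in this contrast. By direction, 4 members were higher, beside 30.4% of all genes, and 5 were lower, beside 30.1%. The same 4 members were higher and the same 5 lower in each of the other 3 genotypes, beside 60.4% of all genes called in Slc25a1 heterozygotes, 60.3% in Mrpl40 heterozygotes and 57.5% in double heterozygotes; for Chrna7 in Slc25a1 heterozygotes the difference is a description. In that order 30.5%, 30.8% and 28.9% of all genes were higher and 29.9%, 29.4% and 28.6% were lower. The ranges of the tissues did not overlap for 4 members in wild type (26.5% of all genes), 6 in Slc25a1 heterozygotes (31.2%), 7 in Mrpl40 heterozygotes (32.5%) and 7 in double heterozygotes (29.2%). The 4 contrasts use different animals. In bulk tissue, fewer cells of a type and less RNA per cell cannot be told apart.

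**Figure D2:**
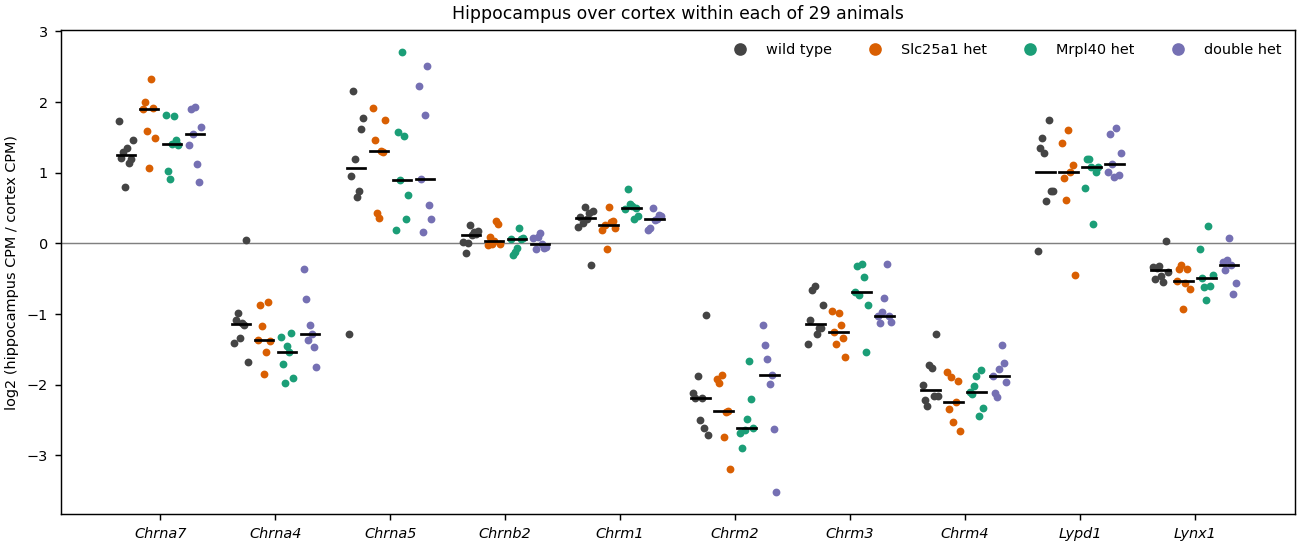
Log2 ratio of hippocampus CPM to cortex CPM for each member in each of 29 animals, coloured by labelled genotype; black bars are medians per genotype and the grey line marks equal levels. Chrna7 lies above the line and Chrm2, Chrm3 and Chrm4 below it in all 29 animals, while Chrnb2 straddles it.

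Of the nicotinic subunits, Chrna7 was higher in hippocampus in 29 of 29 animals. Its wild-type cortex libraries ran from 3.59 to 5.91 CPM with a median of 4.37 (n = 9), and its wild-type hippocampus libraries from 9.18 to 14.2 CPM with a median of 10.6 (n = 8). No cortex library of any genotype (highest 6.25 CPM) reached a hippocampus library of any genotype (lowest 8.99 CPM); 15% of all genes tested were separated in that way. The log2 fold change in wild type was 1.27 ± 0.12 (SE; adjusted p = 4.68e-11, edgeR), a 2.41-fold higher level in hippocampus.

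Chrna4, the ligand-binding partner of beta2, went the other way. Wild-type cortex held 29.1 to 40.0 CPM (median 34.8, n = 9). In wild-type hippocampus 7 libraries held 11.9 to 18.0 CPM, and the other, of replicate 8, stood at 36.0 CPM, inside the cortical range. The log2 fold change was -1.07 ± 0.15 (adjusted p = 5.39e-07, edgeR), and -1.24 without the animal of that library. Across genotypes Chrna4 was lower in hippocampus in 28 of 29 animals, the exception being the same animal.

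Replicate 8 of wild-type hippocampus also had the highest Chrm2 (10.0 CPM) and Chrm4 (15.0 CPM) of any hippocampus library and the lowest Chrm1 (181 CPM). Its summed hippocampal markers were the lowest of the 29 libraries (1189 CPM), its oligodendrocyte markers the highest (4657 CPM, with 9 of 9 markers at their highest), and its interneuron and layer 6 markers were also the highest. The layer 6 list does not separate the tissues, with medians of 116 CPM over cortex and 108 CPM over hippocampus libraries. The thalamic markers ranked second at 225 CPM, with 7 of 8 above the median. Basal forebrain markers, which include Chat and Slc5a7 of cholinergic neurons, summed to 4.63 CPM there and at most that in any other library, with Isl1 at 0. The part of these differences in the member levels was not tested. The tissue calls of all 9 members held without the animal of this library.

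Chrna5 was scarce in both tissues and varied widely. It ran from 0.600 to 1.30 CPM in wild-type cortex (median 0.968) and from 0.448 to 3.99 CPM in wild-type hippocampus (median 2.00), and these ranges overlapped. Over all genotypes hippocampus libraries ran from 0.448 to 7.02 CPM. Its tissue difference was 1.08 ± 0.30 on the log2 scale (adjusted p = 0.00263, edgeR), and 28 of 29 animals were higher in hippocampus. Its counts went down to 12 in a cortex library and 10 in a hippocampus library, so single Chrna5 values carry a wide counting error.

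Chrnb2, the beta subunit of the high-affinity receptor, had the smallest tissue difference of the 10 members. Wild-type cortex held 55.2 to 68.6 CPM (median 61.2) and wild-type hippocampus 60.5 to 73.4 CPM (median 64.8). The log2 fold change of 0.09 had a 95% interval of 0.0035 to 0.18 and an adjusted p of 0.0668 (edgeR), and in Mrpl40 heterozygotes the interval ran from -0.08 to 0.10. The wild-type difference passed the threshold when certain single animals were left out. The adjusted p (edgeR) was 0.0378 without the animal of replicate 2 of wild-type cortex, an omission chosen after seeing the data. It was 0.0438 without the animal of replicate 3 of Slc25a1 heterozygous hippocampus, which entered the same fit. That hippocampus library held 1001 CPM of summed cerebellar markers beside a tissue median of 299 CPM. Between the tissues, Chrna4 thus fell by 1.07 on the log2 scale, and the wild-type interval of its partner Chrnb2 ended at 0.18. Exons of Chrnb2 and Adar overlap on opposite strands by 1365 bases, and no source names the strand setting of the counting, so reads of both genes may be mixed in this row.

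Among the muscarinic receptors, the Gi-coupled pair had the largest tissue differences of all members. Chrm2, also known as an autoreceptor on cholinergic terminals, ran from 15.0 to 20.2 CPM in wild-type cortex (median 17.1) and from 2.56 to 4.44 CPM in 7 of 8 wild-type hippocampus libraries, with replicate 8 at 10.0 CPM. The ranges did not overlap, as for 26.5% of all genes tested in wild type. Its log2 fold change was -2.10 ± 0.20 (adjusted p = 5.42e-10, edgeR), a 4.27-fold lower level in hippocampus. An opposite-strand transcript, 9330158H04Rik, shares 142 exonic bases with it.

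Chrm4 ran from 22.4 to 36.9 CPM in wild-type cortex (median 32.6) and from 4.83 to 15.0 CPM in wild-type hippocampus (median 8.28), again without overlap. Its log2 fold change was -1.92 ± 0.10 (adjusted p = 2.94e-16, edgeR), or 3.79-fold lower. Both Gi-coupled receptors were lower in hippocampus in 29 of 29 animals, and over all genotypes no hippocampus library reached a cortex library for either gene.

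The Gq-coupled receptors moved in opposite directions. Chrm3 ran from 73.4 to 101 CPM in wild-type cortex (median 85.9) and from 27.3 to 55.1 CPM in wild-type hippocampus (median 41.0). It was 2.05-fold lower in hippocampus (log2 fold change -1.04 ± 0.11, adjusted p = 8.39e-09, edgeR). Over all genotypes its highest hippocampus library (76.1 CPM) passed its lowest cortex library (73.4 CPM). Chrm1, the most abundant receptor gene of the list per length, ran from 188 to 225 CPM in wild-type cortex (median 202) and from 181 to 297 CPM in hippocampus (median 249.8). Its 1.22-fold higher level in hippocampus was small but called (log2 fold change 0.29 ± 0.06, adjusted p = 0.000108, edgeR), and 27 of 29 animals showed it. Chrm1 shares 329 exonic bases with Gm22820 on the opposite strand.

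The Ly6 modulators also split. Lypd1 ran from 13.8 to 30.6 CPM in 8 of 9 wild-type cortex libraries (median of all 9, 18.0), and replicate 2 stood at 59.6 CPM. Wild-type hippocampus held 41.9 to 55.3 CPM (median 46.0). Lypd1 thus differed by 0.96 ± 0.18 on the log2 scale (adjusted p = 4.67e-05, edgeR). The difference was 1.13 without the animal of that cortex library, whose hippocampus library held 55.3 CPM. Replicate 7 of Slc25a1 heterozygous cortex was similarly high at 57.5 CPM, while the other 28 cortex libraries stayed at or below 30.6 CPM. Those 2 libraries had the highest sums of hippocampal markers among the 30 cortex libraries (554 and 544 CPM, with 5 and 6 of 11 markers over the cortical median); the part of this in Lypd1 was not tested. Exons of Lypd1 and Gpr39 overlap on opposite strands by 1202 bases.

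Lynx1 ran from 340 to 485 CPM in wild-type cortex (median 417) and from 293 to 364 CPM in wild-type hippocampus (median 328), with overlap. It was 1.28-fold lower in hippocampus (log2 fold change -0.36 ± 0.09, adjusted p = 0.00093, edgeR) and lower in 26 of 29 animals. Replicate 5 of Mrpl40 heterozygous hippocampus stood apart at 555 CPM, above every other library of either tissue. Its oligodendrocyte markers ranked 3 of 29 (4079 CPM) and its choroid plexus markers second (82.4 CPM). Its thalamic (90.6 CPM) and cerebellar markers (194 CPM) were the lowest in hippocampus. The library highest in oligodendrocyte markers, replicate 8 of wild type, held 350 CPM of Lynx1. The one highest in choroid plexus markers, replicate 6 of double heterozygotes, held 246 CPM. The part of such markers in the value of 555 CPM was not tested.

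A further 6 lists cover the rest of the cholinergic pathway: 56 genes, of which 43 were tested between tissues. In wild type 12 of the 43 rose and 16 fell in hippocampus (65.1%, beside 60.6% of all genes). Of 12 further nicotinic subunits 6 were tested: Chrna2 was higher in hippocampus (0.677 ± 0.275 CPM in cortex, n = 9, and 2.72 ± 0.554 in hippocampus, n = 8; log2 fold change 1.96, adjusted p = 1.62e-12, edgeR), Chrnb3 was lower (4.41 ± 0.85 and 0.212 ± 0.264 CPM), 1 more rose, 1 more fell and 2 were not called. Chrm5, the only other muscarinic receptor, rose but was near 0 in both tissues, at 0.0598 ± 0.0597 and 0.294 ± 0.255 CPM. Among 8 tested Ly6 relatives 2 rose and 3 fell; those named are Lypd6 (30.7 ± 2.94 CPM in cortex and 20.2 ± 3.83 in hippocampus) and Lypd6b (10.6 ± 2.00 and 3.99 ± 1.45 CPM), both lower in hippocampus.

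Of 6 genes for receptor assembly 1 rose, 1 fell and 4 were not called. Vsnl1, a calcium sensor that raises surface levels of alpha4-beta2 receptors, was 779 ± 58.3 CPM in cortex and 372 ± 68.0 in hippocampus, and Tmem35a, the chaperone NACHO, 45.0 ± 5.16 and 52.1 ± 5.99 CPM. Of 8 tested genes for acetylcholine synthesis, transport and breakdown, 2 rose, 3 fell and 3 were not called. Chat, the synthesising enzyme, was scarce at 0.459 ± 0.223 CPM in cortex and 0.0692 ± 0.0630 CPM in hippocampus. Slc44a1, a choline transporter, was 52.4 ± 2.34 and 66.1 ± 6.24 CPM. Downstream of muscarinic receptors 4 of 14 genes rose, 7 fell and 3 were not called. Rgs4, which speeds the turn-off of Gq and Gi signals, was 550 ± 54.0 CPM in cortex and 112 ± 16.0 in hippocampus, and Plcb4, a phospholipase C driven by Gq, 91.7 ± 10.9 and 18.8 ± 6.22 CPM. Each of these named differences passed the same test.

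**Figure D3:**
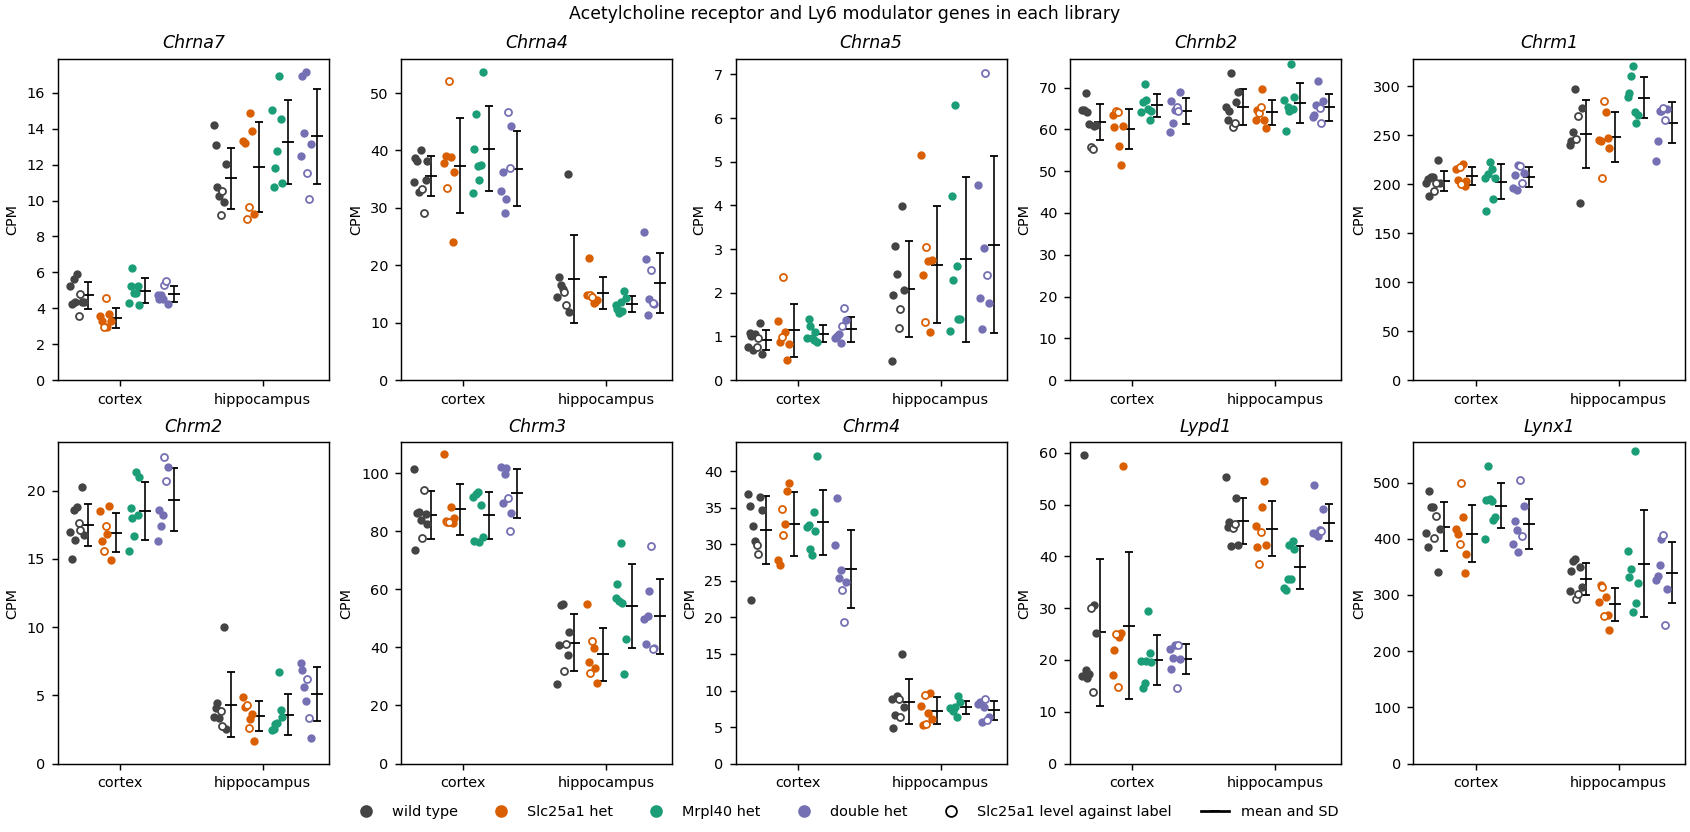
CPM of each member in every library (linear axes from 0), by tissue and labelled genotype; open circles are the 6 animals with an Slc25a1 level at odds with their label, and bars give mean and SD. For Chrna7, Chrm2 and Chrm4 the cortex and hippocampus libraries do not overlap over all genotypes, as for 15% of all genes tested. Single high libraries are visible for Chrna4, Lypd1 and Lynx1.

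By edgeR, no member passed the adjusted threshold in any of the 12 genotype comparisons within a tissue. For Chrna7 the comparisons that include Slc25a1 heterozygous cortex are a description. The 3 heterozygous groups were each compared with wild type in a fit of all 4 genotypes of the tissue; these comparisons share the wild-type libraries. In cortex the share of all 20394 genes called was 0% for Slc25a1 heterozygotes, 0.0294% for Mrpl40 heterozygotes and 0.0686% for double heterozygotes. In hippocampus, over 20162 genes, it was 0%, 0.00496% and 0.00992%. No member had ranges apart from wild type in any of these 6 comparisons, beside 0.0294%, 0.0294% and 0.118% of all genes in cortex and 0.169%, 0.0694% and 0.0546% in hippocampus. Leaving out Chrna7, whose value there is a description, no member had an unadjusted p under 0.05 in Slc25a1 heterozygous cortex, beside 3.17% of all genes. Such members numbered 1 and 2 of 10 in Mrpl40 and double heterozygous cortex, beside 6.94% and 10.9% of all genes. In hippocampus they numbered 0, 3 and 1 for the 3 heterozygous groups, beside 7.77%, 8.19% and 5.28%. DESeq2 called 1 member in Mrpl40 heterozygous against wild-type hippocampus and 1 in double against Slc25a1 heterozygous cortex. The call in hippocampus was Lypd1; the one in cortex was Chrna7, whose value there is a description. Between heterozygous groups and for the interaction of the alleles, members other than Chrna7 with an unadjusted p under 0.05 numbered 3 for double against Slc25a1 heterozygotes, 1 for double against Mrpl40 heterozygotes and 1 for the interaction in cortex, where Chrna7 is a description; the shares of all genes were 9.92%, 6.94% and 5.35% of all genes. In hippocampus they numbered 2, 1 and 1, beside 9.04%, 4.68% and 3.39%. After adjustment 0.0588%, 0.0049% and 0% of all genes were called in cortex in these 3 comparisons, and 0% in each of them in hippocampus. Over the 10 members the median log2 fold change against wild type was 0.03, 0.08 and 0.04 in cortex and -0.09, 0.06 and 0.05 in hippocampus, in the same order, beside medians of all genes between -0.0070 and 0.0045.

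**Figure D4:**
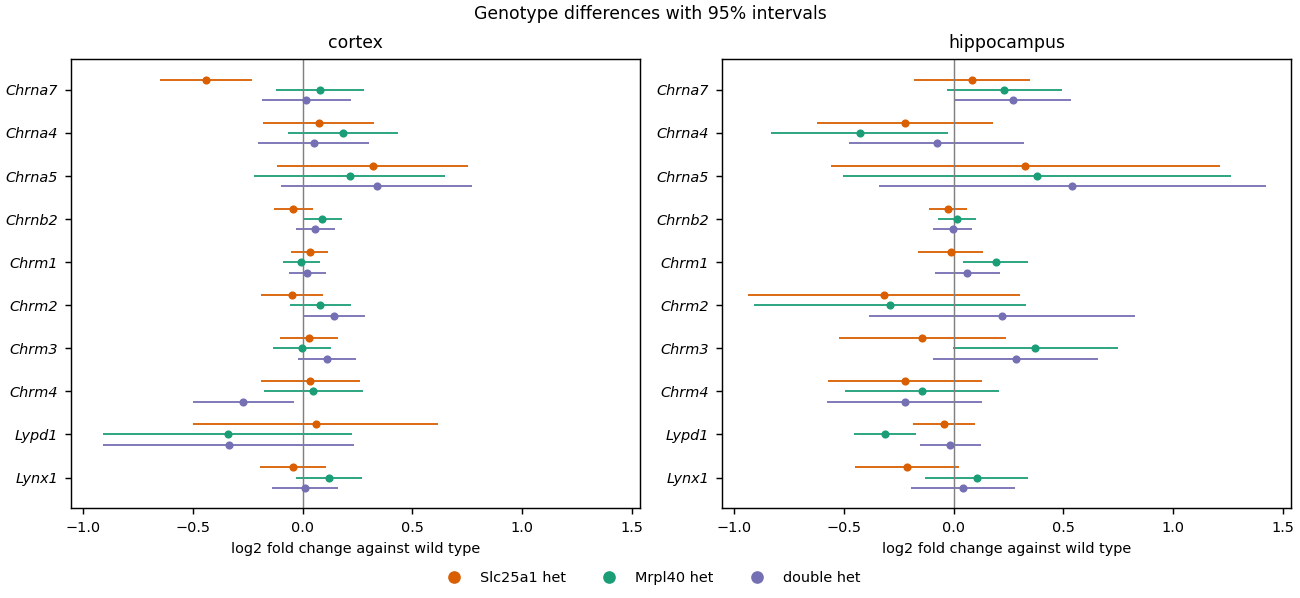
Log2 fold change of each heterozygous group against wild type with its 95% interval, not adjusted for the number of genes, in cortex (left) and hippocampus (right). Most intervals include 0 or end near it. The cortical Chrna7 value in Slc25a1 heterozygotes and the hippocampal Lypd1 value in Mrpl40 heterozygotes lie farthest from 0 relative to their width. The Chrna7 value is a description, because it was known when the members were chosen. Lypd1 was not called after adjustment by edgeR.

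Cortical Chrna7 was low in the Slc25a1 heterozygotes and not in the double heterozygotes. The 7 Slc25a1 heterozygous libraries ran from 2.97 to 4.59 CPM (median 3.29), wild type from 3.59 to 5.91 CPM (median 4.37), Mrpl40 heterozygotes from 4.18 to 6.25 CPM (median 4.87) and double heterozygotes from 4.22 to 5.52 CPM (median 4.72). The highest Slc25a1 heterozygous library, replicate 4 at 4.59 CPM, lay above 5 of the 9 wild-type libraries, and the lowest wild-type library, replicate 6 at 3.59 CPM, lay below replicate 6 of the heterozygotes at 3.67 CPM. Replicate 4 of the heterozygotes and replicate 6 of wild type are animals whose Slc25a1 level went against the label. The other such animals of these groups lay within the range of their label, with replicate 3 of the heterozygotes at 2.97 CPM and replicate 7 of wild type at 4.81 CPM. Without the 6 such animals Slc25a1 heterozygotes ran from 2.97 to 3.67 CPM (n = 5) and wild type from 4.26 to 5.91 CPM (n = 7), with no overlap. That held for 0.255% of genes tested. Because Chrna7 was chosen by these cortical values, the share does not measure how unusual its separation is. The log2 fold change against wild type was -0.44 ± 0.10 with all libraries and -0.54 without those animals. For double against Slc25a1 heterozygotes it was 0.46 ± 0.11, and for double heterozygotes against wild type 0.02 (95% interval -0.19 to 0.22). Both values include the double heterozygous replicates 5 and 6, at 5.30 and 5.52 CPM, which are also against the label. Without the 6 animals double heterozygotes ran from 4.22 to 4.73 CPM (n = 5), with a mean and a median of 4.54 CPM. Wild type then had a mean of 4.88 and a median of 4.37 CPM.

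In hippocampus the same comparison did not show a lower level. Chrna7 ran from 8.99 to 14.9 CPM in Slc25a1 heterozygotes (median 13.2) and from 9.18 to 14.2 CPM in wild type (median 10.6), with a log2 fold change of 0.08 (95% interval -0.18 to 0.35). Double heterozygotes ran from 10.1 to 17.2 CPM there (median 13.2), at 0.27 (0.01 to 0.53; adjusted p = 0.93, edgeR). Without the 6 animals against the label, Slc25a1 heterozygotes ran from 9.25 to 14.9 CPM in hippocampus (median 13.3, n = 5). Double heterozygotes then ran from 12.5 to 17.2 CPM (median 13.7, n = 5) and wild type from 9.94 to 14.2 CPM (median 11.4, n = 6). The hippocampus-to-cortex ratio of Chrna7 had a median of 3.75-fold in Slc25a1 heterozygous animals, beside 2.39-fold in wild type, 2.64-fold in Mrpl40 heterozygotes and 2.91-fold in double heterozygotes. The difference between tissues of the Slc25a1 effect was 0.49 ± 0.18 on the log2 scale, given as a description since it rests on the same cortical values. Over all alternatives that difference ran from 0.48 to 0.66.

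Lypd1 in hippocampus had the smallest p of any tested member in a genotype comparison. Mrpl40 heterozygotes ran from 33.6 to 42.9 CPM (median 35.7) and wild type from 41.9 to 55.3 CPM (median 46.0), so the ranges overlapped only between 41.9 and 42.9 CPM. Slc25a1 heterozygotes (38.5 to 54.6 CPM) and double heterozygotes (43.9 to 53.7 CPM) lay with wild type. The log2 fold change in Mrpl40 heterozygotes was -0.31 ± 0.07, with an adjusted p of 0.172 in edgeR and 0.0499 in DESeq2; over all alternatives it ran from 0.0499 to 0.466. For double against Mrpl40 heterozygotes the log2 fold change was 0.30 ± 0.07 (adjusted p = 0.958, edgeR), and these 2 groups did not overlap, as for 0.0843% of all genes tested. The interaction of the alleles was 0.35 ± 0.10 (adjusted p = 0.999, edgeR).

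The other members with an unadjusted p under 0.05 did not pass the adjusted threshold. In cortex Chrm4 was 19.3 to 36.3 CPM in double heterozygotes (median 25.4) and 22.4 to 36.9 CPM in wild type (median 32.6), a log2 fold change of -0.27 ± 0.11 (adjusted p = 0.352, edgeR). Against Slc25a1 and Mrpl40 heterozygotes the cortical Chrm4 values of double heterozygotes were -0.31 and -0.32 (adjusted p = 0.365 and 0.566). Without the 6 animals the Chrm4 values of double heterozygotes were -0.20 against wild type, -0.19 against Slc25a1 heterozygotes and -0.21 against Mrpl40 heterozygotes. Cortical Chrm2 was 0.14 ± 0.07 in double heterozygotes against wild type (adjusted p = 0.438) and 0.07 without the 6 animals. Cortical Chrnb2 was 0.09 ± 0.04 in Mrpl40 heterozygotes (adjusted p = 0.713) and 0.05 without the 6 animals.

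In hippocampus of Mrpl40 heterozygotes, Chrna4 was at -0.43 ± 0.20 (adjusted p = 0.593, edgeR) and at -0.19 without replicate 8 of wild type, the library described above. Chrm1 there was 263 to 320 CPM (median 289) against 181 to 297 CPM in wild type, a log2 fold change of 0.19 ± 0.07 (adjusted p = 0.59, edgeR). The value of 181 CPM is that same replicate 8, and the next lowest wild-type library held 241 CPM. Over all alternatives the Chrm1 fold change ran from 0.13 to 0.21. The precision differed between members: the 95% half-width against wild type was 0.08 for Chrm1 and 0.57 for Lypd1 in cortex of Mrpl40 heterozygotes, and 0.09 for Chrnb2 and 0.89 for Chrna5 in hippocampus. None of the 42 further cholinergic genes tested in cortex, or of the 40 tested in hippocampus, was called in a genotype comparison by edgeR. At an unadjusted p under 0.05 they numbered 0, 9 and 2 in cortex and 3, 4 and 3 in hippocampus for the 3 heterozygous groups against wild type, beside 3.17%, 6.94% and 10.9% of all genes in cortex and 7.77%, 8.19% and 5.28% in hippocampus.

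Tests of whether a genotype effect differed between tissues called no member by edgeR or DESeq2. Leaving out Chrna7, which is a description there, no member had an unadjusted p under 0.05 for the Slc25a1 effect, beside 6% of all genes. For the Mrpl40 and double heterozygous effects 3 and 0 members had such a value, beside 5.83% and 5.03% of all genes. After adjustment 0% of all genes were called for the Slc25a1 and Mrpl40 effects and 0.0234% for the double heterozygous effect. The tested members with the smallest p were all in the Mrpl40 comparison, at -0.52 ± 0.22 for Chrna4 (adjusted p = 0.829, edgeR), 0.34 ± 0.16 for Chrm3 (adjusted p = 0.842) and 0.22 ± 0.09 for Chrm1 (adjusted p = 0.829). Without the animal of replicate 8 of wild-type hippocampus the Chrm1 value was 0.12 and the Chrna4 value -0.36. The Chrna4 interval ran from -0.97 to -0.07 before adjustment.

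Within a tissue, several members varied from library to library along with marker sums. Correlations were taken over 30 cortex or 29 hippocampus libraries after subtracting the mean of the labelled genotype, on log2 values, with 100000 permutations and Benjamini-Hochberg adjustment over 370 relations; 1e-05 is the smallest p they can give. Of 280 relations between a member and a marker sum, 52 had an adjusted p under 0.05 for r, and 35 for both r and rho. Those given here are examples, and a member can go with several marker sums. What underlies these relations was not tested. In cortex Chrna4 went with the summed layer 6 markers (r = 0.837, rho = 0.861, permutation p = 1e-05 for each, adjusted p = 0.000529 and 0.00074; r = 0.780 without the 2 farthest libraries). Its highest and lowest libraries within the Slc25a1 heterozygotes, replicates 4 and 6, held 52.0 and 24.1 CPM of Chrna4 beside layer 6 sums of 223 and 71.2 CPM. Their summed oligodendrocyte markers also differed, at 4085 and 2033 CPM. The layer 6 sum does not tell the tissues apart, with a median of 116 CPM over cortex and 108 CPM over hippocampus libraries. It therefore stands for the listed genes and not for layer 6 content alone.

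Cortical Chrm3 went with the summed neocortical markers (r = 0.824, rho = 0.805, permutation p = 1e-05 for each, adjusted p = 0.000529 and 0.00074; r = 0.762 without the 2 farthest libraries). Lypd1 in cortex went with the summed hippocampal markers (r = 0.770 with permutation p = 1e-05 and adjusted p = 0.000529, rho = 0.665 with permutation p = 9e-05 and adjusted p = 0.00277). Without the 2 farthest libraries, the high ones named above, r was 0.652. Only part of the hippocampal markers lay over the cortical median in those 2 libraries. Replicate 4 of double heterozygous cortex had the next highest sum, at 539 CPM, with Lypd1 at 22.8 CPM. In hippocampus Chrm1 went with the hippocampal markers (r = 0.706, permutation p = 4e-05, adjusted p = 0.00148; rho = 0.679, permutation p = 9e-05, adjusted p = 0.00277; r = 0.516 without the 2 farthest libraries). A pair of members also went together there: Chrna5 and Chrm3 (r = 0.710, permutation p = 5e-05, adjusted p = 0.00154; rho = 0.659, permutation p = 0.0002, adjusted p = 0.00493; r = 0.627 without the 2 farthest libraries). Of 45 pairs of members in each tissue, 7 in cortex and 7 in hippocampus had an adjusted p under 0.05 for r; for both r and rho it was 3 in cortex and 6 in hippocampus.

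**Figure D5:**
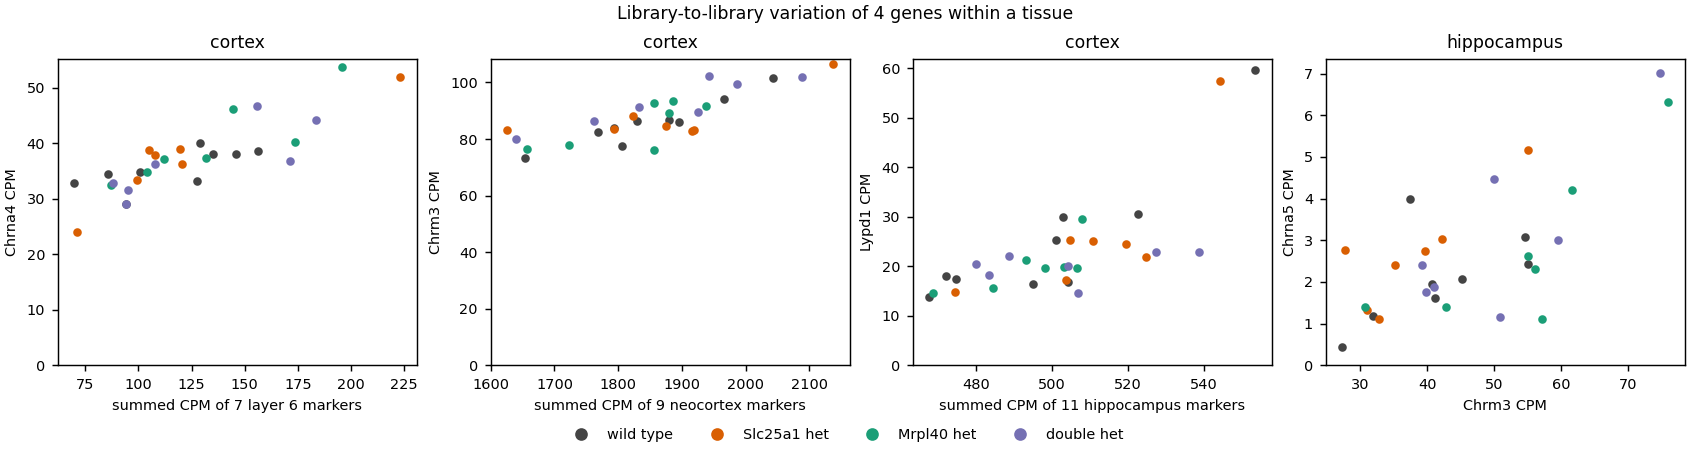
Library values within a tissue, coloured by labelled genotype: Chrna4 against summed layer 6 markers, Chrm3 against summed neocortical markers and Lypd1 against summed hippocampal markers in 30 cortex libraries, and Chrna5 against Chrm3 in 29 hippocampus libraries (all CPM). Each pair rises together, and the 2 Lypd1 libraries at 59.6 and 57.5 CPM lie at the right edge of the third panel.

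The genes most like each member were ranked by the same correlation over the libraries of a tissue, among 11748 other genes in cortex and 11782 in hippocampus (1 more for Chrna5, and for Chrm2 in hippocampus) whose log2 CPM averaged 2 or more. In cortex Chrna4 was most like Grik3 (r = 0.917) and Ndst1 (0.902), Chrm4 like Phf13 (0.940) and Per1 (0.895), Lynx1 like Cplx1 (0.940) and Mroh1 (0.899), and Lypd1 like Hap1 (0.919) and Nnat (0.872). Chrm3 was nearest to Opcml (0.886) and Kalrn (0.882). Likeness was lower for Chrna7, with Aldh5a1 (0.767) and Kcna1 (0.727), for Chrna5, with Piga (0.712) and Cdh18 (0.700), for Chrnb2, with Hsdl1 (0.795) and Ptprm (0.784), for Chrm1, with Synpo (0.790) and Pgbd5 (0.788), and for Chrm2, with Shisa6 (0.775) and Pphln1 (0.766).

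In hippocampus Lynx1 was again nearest to Cplx1 (r = 0.959), followed by a gene that the table lists under the date-like symbol 8-Sep (0.920). Chrm3 was nearest to Rasgrp1 (0.947) and Actr3b (0.903), Chrm1 to Ube2e2 (0.927) and Ptk2b (0.918), Chrna5 to Pou3f1 (0.921) and Zdhhc2 (0.916), and Chrna4 to Tmem44 (0.908) and Hivep1 (0.896). Chrm2 was nearest to Fgfr2 (0.876) and Elavl4 (0.844), Chrnb2 to Bace1 (0.841) and Larp1 (0.837), Chrna7 to Rab3gap2 (0.821) and Astn1 (0.807), Lypd1 to Pak3 (0.776) and Kcnk9 (0.761), and Chrm4 to Plekha7 (0.767) and Carmil3 (0.767). These are descriptions over 29 or 30 libraries with no test. Cplx1 was the nearest gene to Lynx1 in both tissues; no other member had the same nearest gene in both.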

How the data were processed

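Cortex and hippocampus RNA of 30 male mice was sequenced as 59 poly(A) libraries with a directional kit, per the labels' protocols. Reads were aligned with HISAT2 and counted with featureCounts against mm39, per the submitters' processing notes, which also name FastQC and DESeq2; no source names versions or the strand setting. The authors deposited raw counts per gene, which are used here, and normalized counts (a signal scaled between libraries), used only in 1 alternative as log2(value + 1). Of 57180 gene rows, 7074 have a blank symbol. No count table column was left unmapped.

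Counts were filtered with filterByExpr, scaled by the trimmed mean of M values and tested with the robust quasi-likelihood test of edgeR 4.0.16 in R 4.3.3, with Benjamini-Hochberg adjustment over all genes and a threshold of 0.05. Genotypes were compared within a tissue in a fit of all 4 genotypes (12 comparisons), and tissues with animal as a block (4 comparisons of tissues and 3 of genotype effects between tissues). Whether animals in a group were littermates is not given, so p-values measure the spread between these animals. The script was tested on simulated data. Alternatives were DESeq2 1.42.0, its size factors, no filter, the deposited normalized counts in limma 3.58.1, a replicate block, only the genotypes compared, and fits without stated libraries; leaving out replicate 2 of wild-type cortex was chosen after seeing the data. The members and lists were chosen with earlier results of these data known. The genes named beside the members were, by a rule, the 2 of each further list with the smallest p between the tissues in wild type among those past the test, and for each member and tissue the 2 genes of highest Pearson correlation among tested genes whose log2 CPM averaged 2 or more, leaving out predicted-gene and Rik symbols. Total counts of 21443017 to 32120906 per library limit precision mainly for Chrna5. Exon lengths and coordinates are those of GRCm38 (GENCODE vM21), not the build of the counts, and serve only for lengths, overlaps and sequences.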

Additional observations from a re-analysis of the deposited data

Results flagged for a closer look

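Of 80 groups of libraries (10 members in 4 genotypes and 2 tissues), 11 had a highest library farther from its neighbours than Dixon's 95% critical value allows; chance flags about 1 in 20 groups. Replicate 8 of wild-type hippocampus accounts for 3 of them, with Chrna4 at 36.0 CPM (next highest 18.0), Chrm2 at 10.0 CPM (4.44) and Chrm4 at 15.0 CPM (9.29). Replicate 5 of Mrpl40 heterozygous hippocampus accounts for 2, with Lynx1 at 555 CPM (379) and Chrm2 at 6.74 CPM (3.96).

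Lypd1 stood apart in cortex in replicate 2 of wild type, at 59.6 CPM (30.6), and in replicate 7 of Slc25a1 heterozygotes, at 57.5 CPM (25.2). Cortical Chrna7 stood apart in replicate 4 of the Slc25a1 heterozygotes, at 4.59 CPM (3.67), an animal whose Slc25a1 level goes against its label. The others were Chrna4 in Slc25a1 heterozygous hippocampus replicate 2, at 21.3 CPM (14.8), Chrm3 in Slc25a1 heterozygous cortex replicate 1, at 107 CPM (88.3), and Chrm4 in Mrpl40 heterozygous cortex replicate 7, at 42.1 CPM (34.4). The causes were not tested.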

How the results depend on the processing

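The count of members called was within 1.5 times its main value in 150 of 152 alternative values. With DESeq2 it rose from 0 to 1 in Mrpl40 heterozygous against wild-type hippocampus (Lypd1). It also rose from 0 to 1 in double against Slc25a1 heterozygous cortex, where the gene was Chrna7 and its value is a description. The cause was not tested. Of the single members, leaving aside the side of the threshold for Chrna7 where its cortical Slc25a1 heterozygous values enter, 449 values kept their direction and side of the threshold, 5 newly passed it (4 for Chrnb2 between tissues and 1 for Lypd1) and 0 reversed. The replicate numbers do not pair the animals: same-numbered libraries of different genotypes had a median correlation of deviations of 0.0185 in cortex and 0.0124 in hippocampus. With the replicate block 0 members were called in all 12 genotype comparisons; Chrna7 in cortex of Slc25a1 heterozygotes was at -0.47 and Lypd1 in hippocampus of Mrpl40 heterozygotes at -0.31. Over all genes, DESeq2 called 23 where edgeR called 6 in Mrpl40 heterozygous cortex, 112 against 14 in double heterozygous cortex and 12 against 1 in Mrpl40 heterozygous hippocampus; it called 70 against 12 for double against Slc25a1 heterozygous cortex, 12 against 1 for double against Mrpl40 heterozygous cortex, 14 against 0 for double against Slc25a1 heterozygous hippocampus and 15 against 5 for the double heterozygous effect between tissues. The count of 14 in double heterozygous cortex was 22 with no filter, 8 with the replicate block, 6 without replicate 2 of wild-type cortex and 2 without the 6 animals against the label. That of 12 against Slc25a1 heterozygotes was 20 with no filter, and 0 without those animals or with only the genotypes compared. All other shifts beyond 1.5 times were between counts of 0 to 6. Depth limits Chrna5 most.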
